A study of Homo sapiens with 4 samples.

Results

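The 35 genes described here encode the folding, quality control and entry machinery of the endoplasmic reticulum (ER). They were taken by name from a list of ER chaperones, disulfide isomerases, lectins, genes of ER-associated degradation (ERAD), stress sensors, and genes of the translocon, signal peptidase and vesicle export. All 35 were found among the 30148 genes of the UMUC3 table and the 17752 genes of the SW780 table, and all 35 reached 1 CPM (read counts scaled to one library total) in each line. UMUC3 and SW780 are established human bladder cancer cell lines. The 4 libraries were UMUC3 shSCD1, UMUC3 shNT, SW780 shSCD1 and SW780 shNT, with 1 library in each group. The shSCD1 cells carried a lentiviral knockdown of SCD1, the stearoyl-CoA desaturase, and the shNT cells have the genotype WT in the labels. UMUC3 grew in MEM and SW780 in DMEM, both with serum and antibiotics, so medium and line cannot be told apart. How many hairpins, clones or cultures stand behind each library is not given in the sources used here.

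As each group was 1 library, nothing could be tested within a line, and statements that a gene was higher or lower are about the libraries themselves. The tables name their columns as first and second, and these were read as shNT and shSCD1, the tables being named after shSCD1 and giving the second over the first. Were the order the other way, every direction below would turn round. SCD, the gene that was knocked down, had 59.6 CPM in UMUC3 shSCD1, against 264 CPM in UMUC3 shNT, 4.44-fold lower with a counting interval of 4.22 to 4.68. In SW780 it had 92.1 CPM in shSCD1, against 592 CPM in shNT, 6.43-fold lower (6.16 to 6.71). The counting interval is the 95% Clopper-Pearson interval (exact) for the part of a gene's reads that came from shSCD1, expressed as a fold, and covers counting error only. Total reads over the genes of each table were 32540576 in UMUC3 shSCD1, 22818368 in UMUC3 shNT, 25549737 in SW780 shSCD1 and 34087871 in SW780 shNT. Of 16 urothelial marker genes, 14 were in the UMUC3 table, 6 had at least 1 CPM in each of its libraries, and their summed level was 264 CPM in shSCD1 and 536 CPM in shNT. UPK1B, GRHL3 and KRT19 were at 0 in both UMUC3 libraries. In SW780 13 of the 16 had at least 1 CPM in each library, with sums of 9968 CPM in shSCD1 and 12330 CPM in shNT. Of 11 markers of blood, endothelium and fibroblasts, 0 reached 1 CPM in UMUC3, and in SW780 their sum was 46.0 CPM in shSCD1 and 41.8 CPM in shNT, most of it the fibroblast marker LUM (39.96 CPM in shSCD1 and 35.88 CPM in shNT). Transcripts of the mitochondrial genome took 6.02% of reads in UMUC3 shSCD1 and 4.23% in UMUC3 shNT, and 4.52% in SW780 shSCD1 and 4.33% in SW780 shNT. The part of any of these differences in the results below was not tested. In bulk RNA, fewer cells that express a gene and less RNA of it per cell cannot be told apart.

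Secreted and membrane proteins enter the ER through the Sec61 channel, lose their signal peptide, gain sugars and disulfide bonds, and fold with the help of BiP (HSPA5), GRP94 (HSP90B1) and the lectins calnexin and calreticulin. Proteins that fail to fold are drawn back across the membrane, ubiquitinated and degraded, which is ERAD. Sensors in the membrane, IRE1 (ERN1), ATF6 and PERK (EIF2AK3), start the unfolded protein response when folding falls behind: IRE1 splices XBP1 mRNA, ATF6 is cleaved to a transcription factor, and PERK slows translation and raises ATF4. ATF6 and spliced XBP1 act on short elements in the promoters of chaperone and ERAD genes. SCD1 supplies monounsaturated fatty acids for membrane lipids, and IRE1 and PERK are known to respond to lipid saturation of the ER membrane as well as to unfolded proteins.

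The promoter elements of this response are shown first, as they are the textbook link between the sensors and the members. Promoters of 300 bases, 250 before and 50 after the start site, were taken from RefSeq (GRCh38.p14) and matched 32 of the 35 members. PDIA3, DERL1 and SEC24D had no match. A gene can have more than 1 annotated start site (35116 promoters for 27305 genes), and a match at any of them was counted. Exact matches were searched on both strands for ERSE (CCAAT, then 9 bases, then CCACG) and ERSE-II (ATTGG, then 1 base, then CCACG), which do not overlap in any member. ERSE was found in 7 of 32 members (21.9%) and in 25 of all 27305 genes with a promoter (0.0916%). ERSE-II was found in 3 members (9.38%) and in 19 genes (0.0696%). The core of a further element, UPRE (TGACGTGG), was found in HYOU1, SSR3 and VCP and in 253 of all genes (0.927%), and in HYOU1 it overlaps an ERSE-II. The elements are known from promoters of chaperone and ERAD genes, so their higher share among the members was fixed in advance. A match is a run of letters and not evidence of binding. Each ERSE and ERSE-II site below is written in the direction of the element, with the fixed letters in capitals.
HSPA5 (chr9:125241391-125241409): CCAATcggcggcctCCACG
HSP90B1 (chr12:103930216-103930234): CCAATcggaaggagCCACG
HSP90B1 (chr12:103930321-103930339): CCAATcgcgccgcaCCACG
CALR (chr19:12938384-12938402): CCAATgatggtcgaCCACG
CANX (chr5:179698778-179698796): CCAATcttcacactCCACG
PDIA6 (chr2:10812853-10812871): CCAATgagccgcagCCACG
CRELD2 (chr22:49918554-49918572): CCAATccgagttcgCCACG
XBP1 (chr22:28800603-28800621): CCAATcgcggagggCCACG
HERPUD1 (chr16:56932025-56932035): ATTGGgCCACG
SDF2L1 (chr22:21642114-21642124): ATTGGtCCACG
HYOU1 (chr11:119057380-119057390): ATTGGaCCACG
HYOU1 (chr11:119057274-119057284): ATTGGaCCACG

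HSPA5 and SDF2L1 are shown with their surroundings because both were lower in UMUC3 and carry a single exact match each. CALR, CRELD2, HERPUD1, PDIA6 and XBP1 also carry a single exact match and were lower in UMUC3. CANX carries a single exact match and was higher there. Inexact matches were not searched, so these runs may hold further elements. The HSPA5 run is on the minus strand and ends at the base before the start site (chr9:125241344-125241593), and its exact ERSE match is in capitals. The SDF2L1 run is on the plus strand, starts 250 bases before the start site and stops where the first annotated exon begins (chr22:21642052-21642260). Its ERSE-II lies on the other strand, so the capitals read as the reverse complement of the site above.
HSPA5: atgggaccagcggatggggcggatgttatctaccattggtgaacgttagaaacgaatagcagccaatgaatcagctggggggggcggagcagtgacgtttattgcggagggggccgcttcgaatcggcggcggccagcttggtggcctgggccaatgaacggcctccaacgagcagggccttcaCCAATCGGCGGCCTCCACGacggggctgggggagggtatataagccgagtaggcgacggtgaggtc
SDF2L1: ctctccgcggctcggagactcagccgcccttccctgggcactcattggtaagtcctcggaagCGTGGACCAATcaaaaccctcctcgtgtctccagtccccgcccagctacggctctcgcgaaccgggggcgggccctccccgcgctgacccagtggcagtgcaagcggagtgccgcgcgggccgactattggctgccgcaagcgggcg

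**Figure D1:**
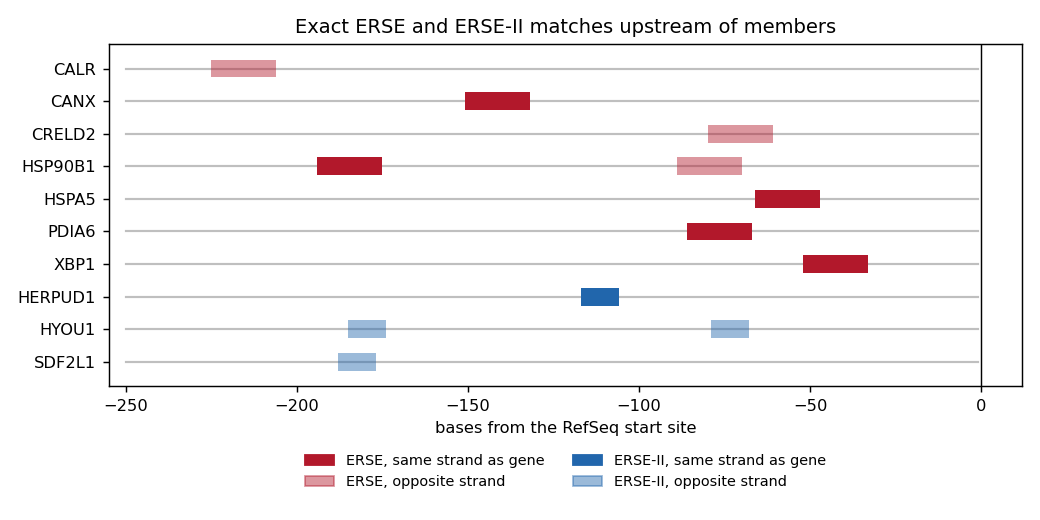
Position of exact ERSE and ERSE-II matches (boxes) in the 250 bases before a RefSeq start site of the 10 members that hold one, in bases from that start site. HSPA5 has its exact ERSE match between −66 and −48, and HSP90B1 and HYOU1 hold a pair of matches each.

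In UMUC3 most of the 35 genes were slightly lower in shSCD1 than in shNT cells, and in SW780 most were slightly higher. Ratios are log2((shSCD1 CPM + 1)/(shNT CPM + 1)), which understates the change of genes with few reads. In UMUC3 27 of 35 had a ratio below 0, where 45.7% of the 14063 genes that reached 1 CPM in one or both libraries did, and their median was −0.16 against 0.04 for all genes. In SW780 12 of 35 had a ratio below 0, where 51.5% of 12880 genes did, and their median was 0.03 against −0.01 for all genes. The summed level of the 35 genes was 9564 CPM in shSCD1 and 10450 CPM in shNT cells of UMUC3, and 9173 CPM in shSCD1 and 8587 CPM in shNT cells of SW780.

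Few members differed by much. At a size rule of 1.5-fold, 3 of 35 were lower in UMUC3 (DNAJB9, SDF2L1 and DNAJB11), where 6.86% of all genes were (965 of 14063). At this setting the members' share is close to that of all genes. With a pseudocount of 5 CPM, 3 members and 477 of the same 14063 genes were lower. None of the 35 was 1.5-fold higher in UMUC3 (10.1% of all genes were), and in SW780 0 were lower (3.7% of all genes) and 0 higher (5.05%). On this scale of CPM + 1 no member reached 2-fold in either line, though by CPM alone SDF2L1 was 2.06-fold lower in UMUC3, and in the authors' deposited table both SDF2L1 and DNAJB9 were past 2-fold lower there (log2 fold changes −1.12 and −1.05). By counting error alone, 24 members were lower and 6 higher in UMUC3, where 29.6% of all genes were lower and 35.9% higher. In SW780 6 were lower and 14 higher by the same measure, where 29.8% of all genes were lower and 28% higher. In the authors' deposited table, the GFOLD value, a log2 fold change shrunk toward 0 for counting error, was below 0 for 26 members and above 0 for 4 in UMUC3 (34.9% and 25.8% of all genes). It was below 0 for 6 and above 0 for 13 in SW780 (26% and 25.7% of all genes). Calls by counting interval or GFOLD value need a smaller difference where a gene has more reads. Members had at least 166 reads in each library, while genes were kept from 1 CPM. The shares of all genes in these calls, and past the 1.5-fold rule, were not matched to the members for read number.

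**Figure D2:**
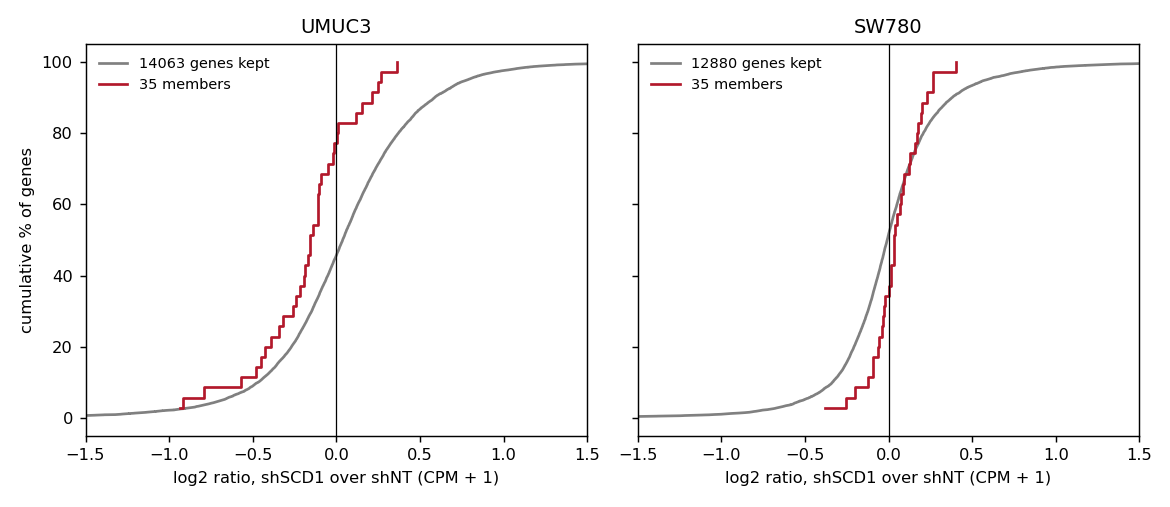
Cumulative percent of genes (vertical axis) up to a given log2 ratio of shSCD1 over shNT (horizontal axis), for the 35 members (red) and all genes kept (grey). In UMUC3 the members' curve lies left of that of all genes from −0.94 to 0.36, and in SW780 the members are narrowly spread between −0.38 and 0.40.

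The chaperones and cochaperones were the lowest group in UMUC3. All 9 had a ratio below 0 there, with a median of −0.48, and 4 of 9 did in SW780, with a median of 0.01. HSPA5 (ENSG00000044574, chromosome 9, 125234853 to 125241330, GRCh38), the BiP chaperone that also holds the stress sensors inactive, had 850 CPM in UMUC3 shSCD1 and 1188 CPM in UMUC3 shNT. SW780 levels were 581 CPM in shSCD1 and 575 CPM in shNT. The UMUC3 library of shSCD1 cells was 1.398-fold lower (counting interval 1.375 to 1.422; log2 ratio −0.48), while in SW780 the fold was 1.01 higher, with an interval that holds 1 (0.989 to 1.03; 0.01). HSP90B1, the ER form of the HSP90 chaperones, had 1230 CPM in UMUC3 shSCD1 and 1326 CPM in UMUC3 shNT, and 897 CPM in SW780 shSCD1 and 878 CPM in SW780 shNT. These were small differences, 1.08-fold lower in UMUC3 (1.06 to 1.09; −0.11) and 1.02-fold higher in SW780 (1.00 to 1.04; 0.03).

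J-domain cochaperones hand unfolded clients to BiP, and 2 of the 3 among the members, DNAJB9 and DNAJB11, passed 1.5-fold in UMUC3. DNAJB9 (ERdj4, ENSG00000128590, chromosome 7, 108569568 to 108574850), a repressor of IRE1, had 20.4 CPM in UMUC3 shSCD1 and 40.01 CPM in UMUC3 shNT. The SW780 levels were 11.7 CPM in shSCD1 and 14.1 CPM in shNT. It was lower in both lines, 1.96-fold in UMUC3 (1.77 to 2.17; log2 ratio −0.94) and 1.21-fold in SW780 (1.045 to 1.403; −0.26). DNAJB11 (ERdj3, ENSG00000090520, chromosome 3, 186567403 to 186585800) had 73.1 CPM in UMUC3 shSCD1 and 128 CPM in UMUC3 shNT, 1.74-fold lower (1.65 to 1.84; −0.79). Its SW780 levels lay close together, 134 CPM in shSCD1 and 137 CPM in shNT, 1.02-fold lower (0.978 to 1.07; −0.03). Of its exonic bases 23.2% are shared with exons of another gene, and reads there could belong to either. DNAJC3, the P58IPK cochaperone that also restrains PERK, had 84.3 CPM in UMUC3 shSCD1 and 105 CPM in UMUC3 shNT, and 110 CPM in SW780 shSCD1 and 112 CPM in SW780 shNT. It was 1.25-fold lower in UMUC3 (1.18 to 1.32; −0.32), a smaller difference than that of HSPA5.

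SDF2L1 (ENSG00000128228, chromosome 22, 21642261 to 21644298), which works with DNAJB11 to keep clients soluble, had the lowest read counts of the 35 in both UMUC3 libraries. It had 5.10 CPM in UMUC3 shSCD1 (166 reads) and 10.5 CPM in UMUC3 shNT (240 reads), and 14.6 CPM in SW780 shSCD1 (372 reads) and 12.8 CPM in SW780 shNT (435 reads). The difference was 2.06-fold lower in UMUC3 by CPM alone (1.69 to 2.53), or −0.92 on the log2(CPM + 1) scale. In SW780 it was 1.14-fold higher, with an interval that holds 1 (0.991 to 1.31; 0.18). CRELD2, an ER stress-induced folding factor, had 11.5 CPM in UMUC3 shSCD1 and 17.6 CPM in UMUC3 shNT, 1.53-fold lower (1.32 to 1.76). Its log2 ratio of −0.57 lay just outside the size rule, at 0.585. In SW780 it had 36.6 CPM in shSCD1 and 33.4 CPM in shNT, 1.095-fold higher (1.003 to 1.195; 0.13). MANF, a secreted factor kept in the ER by BiP, had 50.9 CPM in UMUC3 shSCD1 and 57.5 CPM in UMUC3 shNT, and 49.8 CPM in SW780 shSCD1 and 47.3 CPM in SW780 shNT. HYOU1, the exchange factor of BiP, was nearly level at 354 CPM in UMUC3 shSCD1 and 358 CPM in UMUC3 shNT, and 298 CPM in SW780 shSCD1 and 304 CPM in SW780 shNT. HYOU1 thus carries the ERSE-II pair shown above and had counting intervals that hold 1 in both lines.

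**Figure D3:**
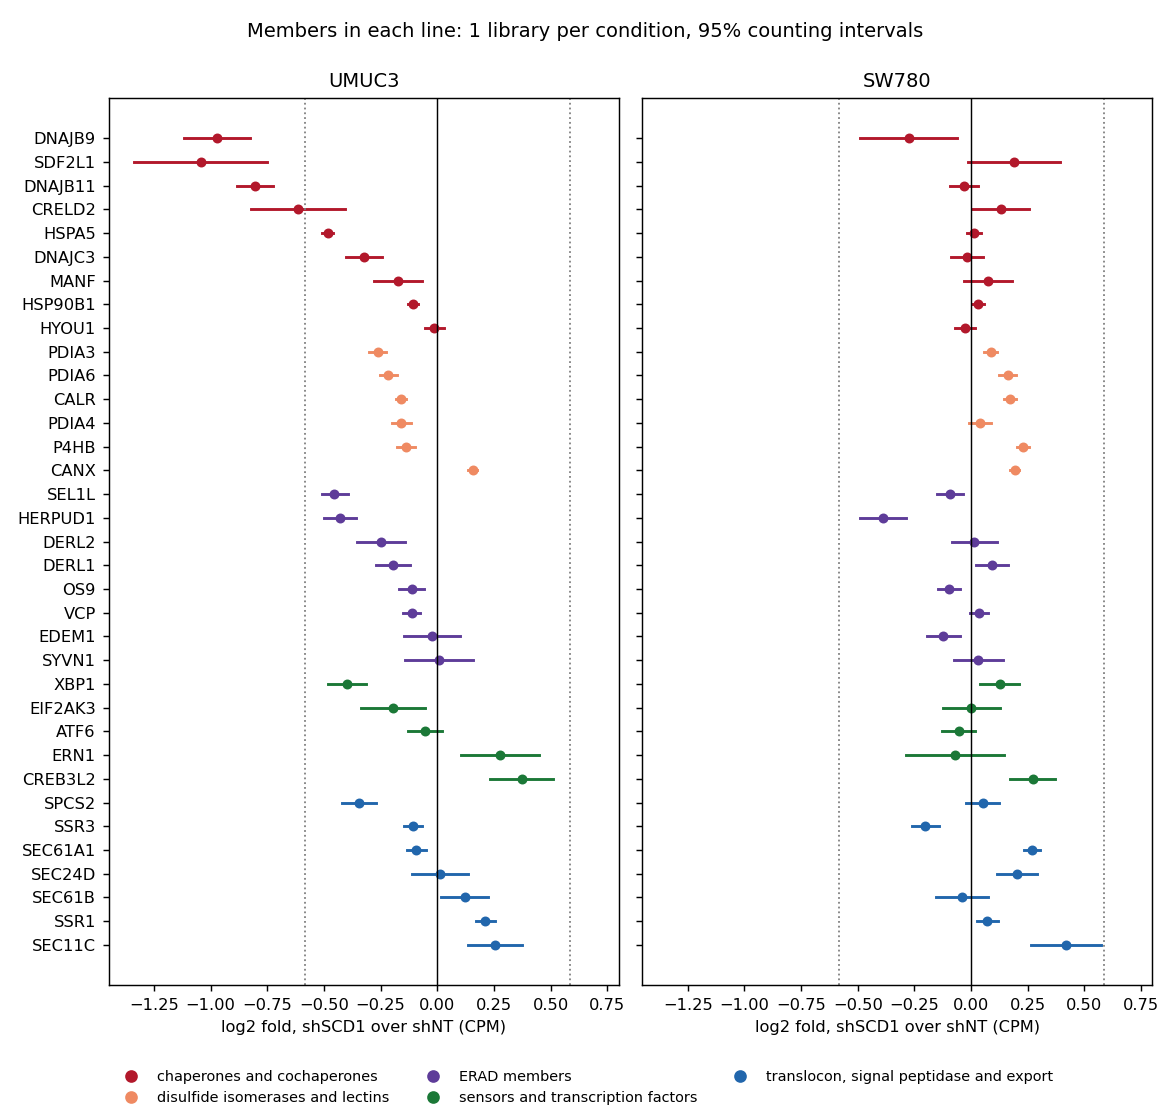
Log2 fold of shSCD1 over shNT by CPM for each member (points) with its 95% counting interval (bars), in UMUC3 (left) and SW780 (right), coloured by role; dotted lines mark 1.5-fold. In UMUC3 the 9 chaperones and cochaperones lie at or left of 0, and by CPM alone CRELD2 also lies past the dotted line at 1.53-fold lower, while in SW780 all 35 lie within the dotted lines.

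The disulfide isomerases and lectins differed in sign between the lines. In UMUC3 5 of 6 had a ratio below 0 (median −0.16) and in SW780 6 of 6 lay above 0 (median 0.17). Their summed level was 4219 CPM in UMUC3 shSCD1 and 4354 CPM in UMUC3 shNT, and 4559 CPM in SW780 shSCD1 and 4057 CPM in SW780 shNT. P4HB, protein disulfide isomerase itself, had 354 CPM in UMUC3 shSCD1 and 389 CPM in UMUC3 shNT, a log2 ratio of −0.14. The SW780 levels of P4HB were 791 CPM in shSCD1 and 675 CPM in shNT, a log2 ratio of 0.23. PDIA3 (ERp57), which works on clients of calnexin and calreticulin, had 356 CPM in UMUC3 shSCD1 and 427 CPM in UMUC3 shNT, and 654 CPM in SW780 shSCD1 and 616 CPM in SW780 shNT. PDIA3 and P4HB were thus lower in shSCD1 cells of UMUC3 and higher in shSCD1 cells of SW780, and no test of that difference between the lines was possible.

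PDIA4 (ERp72) had 304 CPM in UMUC3 shSCD1 and 339 CPM in UMUC3 shNT, and 225 CPM in SW780 shSCD1 and 219 CPM in SW780 shNT. PDIA6 (P5), an isomerase that also binds IRE1, had 397 CPM in UMUC3 shSCD1 and 461 CPM in UMUC3 shNT, and 442 CPM in SW780 shSCD1 and 396 CPM in SW780 shNT. Of the exonic bases, 25.2% in PDIA6 and 18.9% in PDIA3 are shared with another gene. CALR, the soluble lectin, had 987 CPM in UMUC3 shSCD1 and 1103 CPM in UMUC3 shNT, and 793 CPM in SW780 shSCD1 and 704 CPM in SW780 shNT. CANX, its membrane-bound relative, was the one member of the group that was higher in both lines. It had 1822 CPM in UMUC3 shSCD1 and 1636 CPM in UMUC3 shNT, 1.11-fold higher (1.10 to 1.13), and 1654 CPM in SW780 shSCD1 and 1448 CPM in SW780 shNT, 1.14-fold higher (1.13 to 1.16).

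Of the ERAD members, 7 of 8 had a ratio below 0 in UMUC3 (median −0.15) and 4 of 8 in SW780 (median −0.04). HERPUD1, a stress-induced organiser of the ERAD ubiquitin ligase complex, was lower in both lines by about the same amount. It had 101 CPM in UMUC3 shSCD1 and 136 CPM in UMUC3 shNT, 1.34-fold lower (1.28 to 1.41; log2 ratio −0.42). SW780 cells had 48.3 CPM in shSCD1 and 63.2 CPM in shNT, 1.31-fold lower (1.219 to 1.404; −0.38), the lowest ratio of the 35 in that line. SEL1L, the adaptor of the ligase, had 153 CPM in UMUC3 shSCD1 and 209 CPM in UMUC3 shNT, a log2 ratio of −0.45. SEL1L in SW780 stood at 157 CPM in shSCD1 and 168 CPM in shNT, a ratio of −0.09. The ligase SYVN1 (HRD1) itself showed little difference, with 27.4 CPM in UMUC3 shSCD1 and 27.3 CPM in UMUC3 shNT, and 48.4 CPM in SW780 shSCD1 and 47.3 CPM in SW780 shNT.

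Among the other ERAD members, EDEM1, which trims mannose from misfolded glycoproteins, had 40.01 CPM in UMUC3 shSCD1 and 40.67 CPM in UMUC3 shNT, and 101 CPM in SW780 shSCD1 and 110 CPM in SW780 shNT. OS9, a lectin that reads the trimmed sugars, had 185 CPM in UMUC3 shSCD1 and 200 CPM in UMUC3 shNT, and 218 CPM in SW780 shSCD1 and 233 CPM in SW780 shNT. The derlins form part of the channel out of the ER. DERL1 had 103 CPM in UMUC3 shSCD1 and 118 CPM in UMUC3 shNT, and 112 CPM in SW780 shSCD1 and 105 CPM in SW780 shNT. DERL2 had 49.5 CPM in UMUC3 shSCD1 and 58.7 CPM in UMUC3 shNT, and 55.5 CPM in SW780 shSCD1 and 54.98 CPM in SW780 shNT. VCP, the ATPase that pulls clients into the cytosol, differed little. It had 437 CPM in UMUC3 shSCD1 and 472 CPM in UMUC3 shNT, 1.08-fold lower (1.05 to 1.11; −0.11), and 371 CPM in SW780 shSCD1 and 362 CPM in SW780 shNT, 1.02-fold higher with an interval that holds 1 (0.997 to 1.05; 0.03).

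The 3 sensors and their transcription factors did not share a direction. XBP1, the transcription factor made from the mRNA that IRE1 splices, had 72.6 CPM in UMUC3 shSCD1 and 95.8 CPM in UMUC3 shNT, 1.32-fold lower (1.244 to 1.398; log2 ratio −0.39). In SW780 it had 78.3 CPM in shSCD1 and 71.7 CPM in shNT, 1.09-fold higher (1.03 to 1.16; 0.12). Gene-level reads do not tell spliced from unspliced XBP1. ERN1, the kinase and nuclease IRE1, was 1.21-fold higher in UMUC3 (1.08 to 1.37; 0.27), with 23.1 CPM in shSCD1 and 19.1 CPM in shNT. ERN1 in SW780 stood at 11.7 CPM in shSCD1 and 12.3 CPM in shNT, 1.05-fold lower with an interval that holds 1 (0.903 to 1.22; −0.07). XBP1 and ERN1 thus lay on opposite sides of 0 in each line.

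ATF6, the sensor that is cleaved in the Golgi, had 108 CPM in UMUC3 shSCD1 and 112 CPM in UMUC3 shNT (1.04-fold lower, 0.985 to 1.09; −0.05). SW780 showed 99.02 CPM in shSCD1 and 103 CPM in shNT (1.04-fold lower, 0.987 to 1.09; −0.06), so both intervals hold 1. EIF2AK3 (PERK) had 28.0 CPM in UMUC3 shSCD1 and 32.1 CPM in UMUC3 shNT, 1.15-fold lower (1.04 to 1.26; −0.19). Its SW780 levels, 34.87 CPM in shSCD1 and 34.85 CPM in shNT, differed by less than counting error (1.001-fold higher, 0.916 to 1.09). CREB3L2, a transcription factor cleaved like ATF6 that drives genes of the secretory pathway, was higher in both lines. It had 36.9 CPM in UMUC3 shSCD1 and 28.5 CPM in UMUC3 shNT, a log2 ratio of 0.36 and the highest of the 35 in that line, and 63.6 CPM in SW780 shSCD1 and 52.8 CPM in SW780 shNT, a ratio of 0.27.

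**Figure D4:**
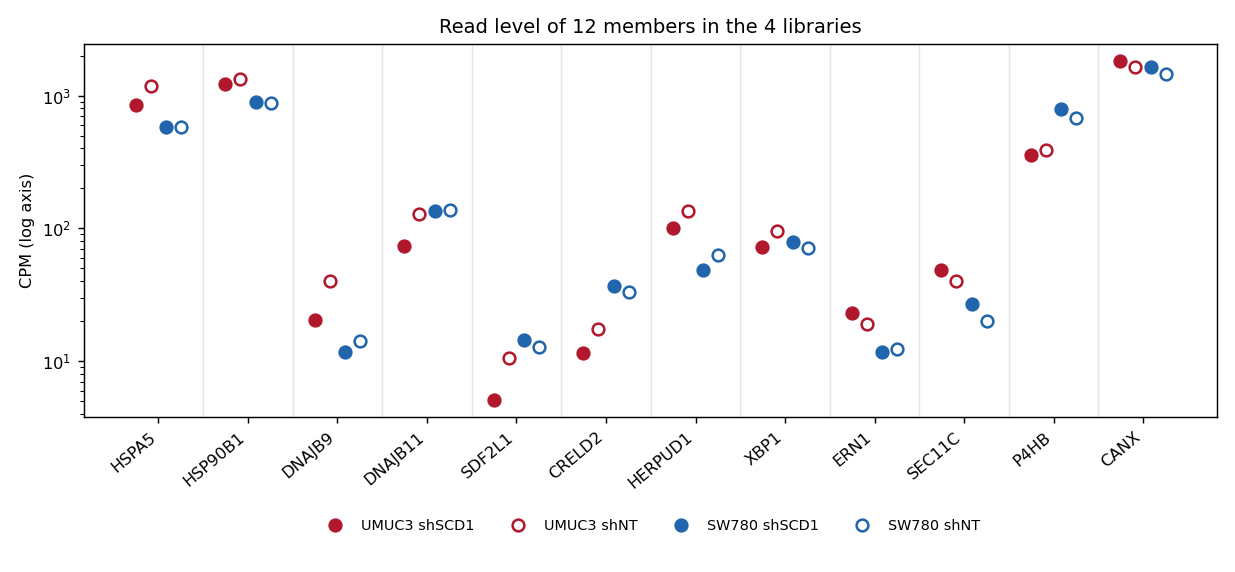
Read level (CPM, log axis) of 12 members in the 4 libraries, with filled circles for shSCD1 and open circles for shNT, red for UMUC3 and blue for SW780. DNAJB9 and HERPUD1 are lower in shSCD1 than in shNT in both lines, while DNAJB11 and HSPA5 are separated in UMUC3 and nearly level in SW780 (134 and 137 CPM for DNAJB11).

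The genes of protein entry and export had a median of 0.01 in UMUC3, where 3 of 7 lay below 0, and of 0.07 in SW780, where 2 of 7 did. SEC61A1, the channel subunit of the translocon, had 341 CPM in UMUC3 shSCD1 and 363 CPM in UMUC3 shNT, 1.07-fold lower (1.04 to 1.10; −0.09). SW780 cells had 433 CPM in shSCD1 and 360 CPM in shNT, 1.204-fold higher (1.174 to 1.236; 0.27). SEC61B, a smaller subunit of the same channel, had 61.2 CPM in UMUC3 shSCD1 and 56.3 CPM in UMUC3 shNT, and 41.6 CPM in SW780 shSCD1 and 42.8 CPM in SW780 shNT. These subunits of one channel therefore had ratios of opposite sign in each line, though the SW780 interval of SEC61B holds 1 (0.950 to 1.115).

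SSR1 and SSR3, subunits of the translocon-associated TRAP complex, also differed from each other. SSR1 had 357 CPM in UMUC3 shSCD1 and 308 CPM in UMUC3 shNT, and 252 CPM in SW780 shSCD1 and 240 CPM in SW780 shNT. SSR3 had 356 CPM in UMUC3 shSCD1 and 384 CPM in UMUC3 shNT, and 149 CPM in SW780 shSCD1 and 171 CPM in SW780 shNT. SSR1 was thus higher and SSR3 lower in shSCD1 cells of both lines, with counting intervals that exclude 1. The signal peptidase genes showed a similar contrast in UMUC3. The catalytic subunit SEC11C had 48.2 CPM in UMUC3 shSCD1 and 40.4 CPM in UMUC3 shNT, and 27.1 CPM in SW780 shSCD1 and 20.2 CPM in SW780 shNT, the highest ratio of the 35 in SW780 at 0.40. SPCS2, an accessory subunit, had 98.5 CPM in UMUC3 shSCD1 and 125 CPM in UMUC3 shNT, and 102 CPM in SW780 shSCD1 and 98.4 CPM in SW780 shNT. SEC24D, a cargo-binding coat protein of COPII vesicles, had 39.0 CPM in UMUC3 shSCD1 and 38.7 CPM in UMUC3 shNT, and 77.1 CPM in SW780 shSCD1 and 67.0 CPM in SW780 shNT.

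Per kilobase of exon, CALR was the most abundant member in all 4 libraries, with 364 CPM per kb in UMUC3 shSCD1 and 406 CPM per kb in UMUC3 shNT, and 292 CPM per kb in SW780 shSCD1 and 259 CPM per kb in SW780 shNT. HSPA5 had 217 CPM per kb in UMUC3 shSCD1 and 304 CPM per kb in UMUC3 shNT. In the order of these levels it stood below CALR, CANX and HSP90B1 in UMUC3 shSCD1, and below CALR alone in UMUC3 shNT. ERN1 was the least abundant, with 2.13 CPM per kb in UMUC3 shSCD1 and 1.75 CPM per kb in UMUC3 shNT, and 1.08 CPM per kb in SW780 shSCD1 and 1.13 CPM per kb in SW780 shNT.

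Between the lines, the ratio was lower in UMUC3 than in SW780 for 27 of 35 members, and for 47.7% of the 11152 genes kept in both tables. Of the 35, 17 had a ratio below 0 in UMUC3 and above 0 in SW780, 10 were below 0 in both, 6 above 0 in both, and 2 (ERN1 and SEC61B) above 0 in UMUC3 and below 0 in SW780. Of the 11152 genes, 22.5% were below 0 in UMUC3 and above 0 in SW780, 25.6% below 0 in both, 26% above 0 in both, and 26% above 0 in UMUC3 and below 0 in SW780. Counting intervals excluded 1 on the lower side in both lines for 5 members (DNAJB9, HERPUD1, SEL1L, OS9 and SSR3) and on the higher side in both for 4 (CANX, CREB3L2, SSR1 and SEC11C), where 10.4% of the 11152 genes were lower and 10.7% higher in both. They lay below 1 in UMUC3 and above 1 in SW780 for 9 members (9.58% of all genes), and the reverse way for 0 (10.6%). Counting intervals narrow with more reads, and these shares were not matched to the members for read number. Across the 35 members Pearson's r between the 2 lines' ratios was 0.32 and Spearman's rho 0.18, as a description over genes that share their libraries. A difference between the lines could not be tested, since 1 library per line and condition leaves no spread.

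The baseline also differed between the lines. The tables were normalized separately, so levels were set side by side as CPM over the 15415 genes in both tables. In shNT cells HSPA5 had 1225 CPM in UMUC3 and 585 CPM in SW780, a log2 ratio of UMUC3 over SW780 of 1.06, and in shSCD1 cells the levels were 877 CPM and 590 CPM, a ratio of 0.57. DNAJB9 (41.2 and 14.4 CPM in shNT cells, in UMUC3 and SW780), SSR3 (396 and 174 CPM) and HERPUD1 (140 and 64.4 CPM) were likewise over 2-fold higher in UMUC3. EDEM1 was lower in UMUC3, with 41.9 CPM in UMUC3 shNT and 112 CPM in SW780 shNT, and so was P4HB, with 401 and 687 CPM. SDF2L1 was close in shNT cells, with 10.8 CPM in UMUC3 and 13.0 CPM in SW780, and further apart in shSCD1 cells, with 5.27 CPM in UMUC3 and 14.8 CPM in SW780.

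A fit over all 4 libraries, with cell line as a term, asked for a shared effect of shSCD1 (limma, 12643 genes). None of the 35 members passed an adjusted p of 0.05, and their lowest adjusted p was 0.961. An unadjusted p under 0.05 (limma) was found for 2 of the 35 members and for 527 of the 12643 genes. The 2 members were HERPUD1 and DNAJB9, both lower in shSCD1 cells of both lines. HERPUD1 had a log2 fold change of −0.40 and an adjusted p of 0.961 (limma). DNAJB9 had a log2 fold change of −0.595 with the same adjusted p of 0.961 (limma). The fit called 1 gene in all (0.00791% of those tested). That gene, BEST1, was named after its value was seen (log2 fold change −4.94, adjusted p = 0.0184, limma). SCD had a log2 fold change of −2.40 and an adjusted p of 0.0876 in this limma fit. With edgeR's quasi-likelihood test 0 genes were called (395 at an unadjusted p under 0.05) and with DESeq2 27 (322), and 0 of the members in either. Members at an unadjusted p under 0.05 numbered 1 with edgeR and 1 with DESeq2. The fit averages the 2 lines, so opposite ratios, as 19 members had, cancel in it.

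Members with an exact ERSE or ERSE-II match in the promoter window were set beside those without one. Members without an exact match may hold an element outside the window or with other letters, which was not searched. In UMUC3 9 of the 10 with an exact match had a ratio below 0, with a median of −0.31 and a range of −0.92 to 0.16. Of the 22 without one 16 did, with a median of −0.11. In SW780 2 of the 10 (HERPUD1 and HYOU1) had a ratio below 0, with a median of 0.13, and 10 of the 22 without, with a median of 0.01. DNAJB9 and DNAJB11, among the lowest in UMUC3, were among the 22 with no exact match in this window. Of the 34 other genes with such a match in their promoter, 11 of the 19 kept in UMUC3 were below 0, with a median of −0.05 and a range of −0.71 to 0.79. In SW780 11 of the 20 kept were below 0, with a median of −0.02 and a range of −0.29 to 0.92. No test was made of these differences.

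Other genes of the ER pathway lay closer to evenly on both sides of 0, with 54.8% below 0 in UMUC3 and 48.5% in SW780. From 8 further lists of 171 genes, 168 were kept in UMUC3, of which 7 were 1.5-fold higher and 8 lower, with a median of −0.04. In SW780 167 were kept, of which 3 were higher and 0 lower, with a median of 0.01. For all genes kept, the shares past the same rule were those given above for each line.

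In the list of other disulfide isomerases and oxidative folding genes, 1 of 18 was 1.5-fold higher in UMUC3. It was ERO1B, which passes oxidising power to protein disulfide isomerase, with 10.2 CPM in UMUC3 shSCD1 and 5.48 CPM in UMUC3 shNT. In the list of ER cochaperones, lectins and prolyl isomerases, 2 of 23 were higher and 1 lower in UMUC3, and 1 was higher in SW780. CLGN (calmegin), a relative of calnexin, had 42.4 CPM in UMUC3 shSCD1 and 15.9 CPM in UMUC3 shNT, 2.67-fold higher (2.37 to 3.00), while in SW780 it had 7.55 CPM in shSCD1 and 6.66 CPM in shNT. DNAJC10, a J-domain reductase, had 257 CPM in UMUC3 shSCD1 and 160 CPM in UMUC3 shNT, a direction opposite to that of DNAJB9 and DNAJB11. PPIC, a prolyl isomerase, had 18.1 CPM in UMUC3 shSCD1 and 33.3 CPM in UMUC3 shNT. The gene past the rule in SW780 was SERPINH1, the collagen chaperone HSP47, with 161 CPM in shSCD1 and 91.0 CPM in shNT, 1.77-fold higher (1.69 to 1.85). SERPINH1 was not among the genes reported for UMUC3, so the lines cannot be set side by side for it.

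Among 30 other ERAD genes 1 passed the rule, EDEM2, the mannosidase that starts trimming. It was lower in both lines, with 23.0 CPM in UMUC3 shSCD1 and 38.6 CPM in UMUC3 shNT (log2 ratio −0.72), and 32.7 CPM in SW780 shSCD1 and 43.9 CPM in SW780 shNT (−0.41). Of 35 other translocon, targeting and membrane insertion genes, 1 was higher and 2 lower in UMUC3, and 1 was higher in SW780. The signal peptidase subunit SPCS3 had 254 CPM in UMUC3 shSCD1 and 159 CPM in UMUC3 shNT, opposite in direction to SPCS2. SSR4, a further TRAP subunit, had 48.8 CPM in UMUC3 shSCD1 and 83.2 CPM in UMUC3 shNT. EMC7, of the ER membrane insertion complex, had 28.98 CPM in UMUC3 shSCD1 and 45.5 CPM in UMUC3 shNT, and EMC10, of the same complex, had 132 CPM in SW780 shSCD1 and 76.6 CPM in SW780 shNT.

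Of 12 oligosaccharyltransferase genes 2 were higher in UMUC3, TUSC3 (82.3 CPM in shSCD1 and 53.4 CPM in shNT) and KRTCAP2 (30.7 and 19.5 CPM), and 0 passed in SW780. Of 26 COPII and cargo receptor genes 1 was lower in UMUC3, TMED9, with 58.5 CPM in shSCD1 and 94.2 CPM in shNT, and in SW780 it had 260 CPM in shSCD1 and 210 CPM in shNT. The remaining unfolded protein response genes, 12 kept in UMUC3 and 11 in SW780, held 1 lower gene in UMUC3, CREB3L1, at 0.307 CPM in shSCD1 and 1.36 CPM in shNT.

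Of the 12 PERK and ATF4 output genes, 1 was higher and 2 lower in UMUC3, and 1 was higher in SW780. DDIT3, the transcription factor CHOP, had 32.0 CPM in UMUC3 shSCD1 and 118 CPM in UMUC3 shNT, 3.69-fold lower (3.44 to 3.97), and 7.95 CPM in SW780 shSCD1 and 8.45 CPM in SW780 shNT. PPP1R15A (GADD34), which ends the PERK block on translation, had 99.6 CPM in UMUC3 shSCD1 and 174 CPM in UMUC3 shNT. ASNS, asparagine synthetase and a target of ATF4, went the other way, with 770 CPM in UMUC3 shSCD1 and 422 CPM in UMUC3 shNT. Of the exonic bases, 39.6% in DDIT3 and 44.6% in ASNS are shared with another gene. ATF3, a stress-induced transcription factor, was the gene past the rule in SW780, with 14.1 CPM in shSCD1 and 8.24 CPM in shNT.

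**Figure D5:**
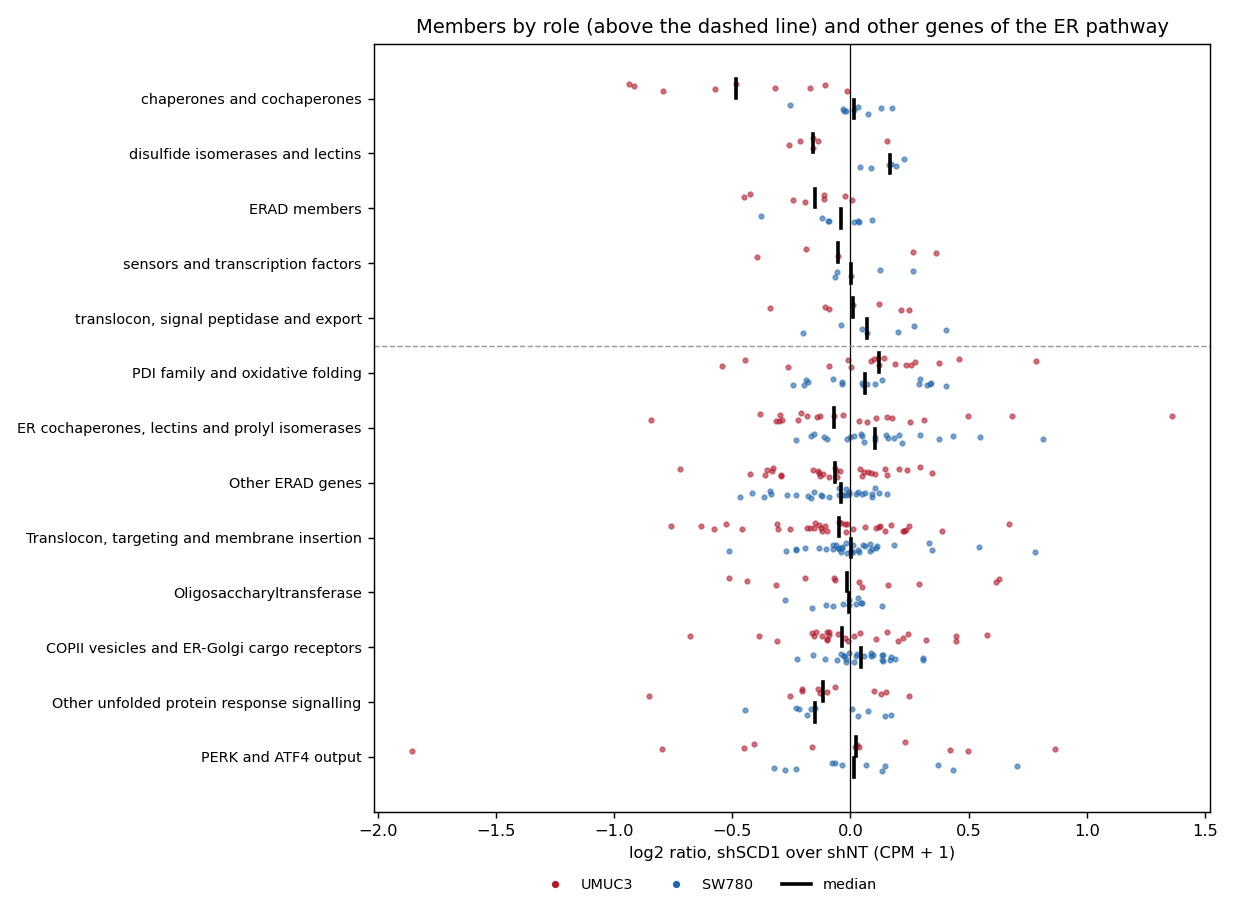
Log2 ratio of shSCD1 over shNT for each gene (points) of the 5 role groups of the 35 members (above the dashed line) and of the 8 further lists, red for UMUC3 and blue for SW780, with medians as black bars. The chaperones and cochaperones have the lowest median in UMUC3 (−0.48), and DDIT3 is the point at −1.85.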

How the data were processed

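Per the labels' protocols, TruSeq libraries of total RNA were sequenced on a NovaSeq machine. The submitters' processing notes name hg38 as the build. Which aligner, counter, strand setting or gene filter was applied is not given in the sources used here. Each line has 1 table deposited by the authors. Per the file headers, its log2 columns are GFOLD (setting 0.01) and a log2 fold change. An empirical FDR, deposited as a p-value, equals 1 throughout and was left out, and 2 columns are headed RPKM. The deposited signal in those columns is a read count scaled to 50000000 units per library with no gene length in it: 100% of low values (up to 20 reads) and at least 99.91% of all values were whole numbers of reads to within 0.1 once divided by 1 step per column. CPM was computed from these reads, and the count tests ran on recovered reads. The limit that a count of 0 allows is 3 reads (0.0922 CPM in UMUC3 shSCD1, 0.131 in UMUC3 shNT, 0.117 in SW780 shSCD1 and 0.0880 in SW780 shNT).

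The members and the gene lists were chosen with earlier results of these data known. Ratios used a pseudocount of 1 CPM, genes under 1 CPM in both libraries of a line were left out, and the size rules were 1.5-fold and 2-fold. The fit over both lines was limma on log2(CPM + 1) with a mean trend and Benjamini-Hochberg adjustment over 12643 genes, with edgeR's quasi-likelihood test and DESeq2 as alternatives on recovered reads. With 1 residual degree of freedom it measures only how the 2 lines differ in their ratios. Named were all 35 members and, of each further list, genes past 1.5-fold among up to 4 with the largest ratios at 5 CPM or more. CREB3L1 lies outside this rule and was named after its value was seen. Positions, exon lengths and shared exonic bases came from GENCODE 29 (GRCh38), promoters from RefSeq. The scripts were tested on simulated data. Tools were Python 3.11.15, numpy 2.4.6, pandas 2.3.3, scipy 1.17.1, matplotlib 3.10.9, R 4.3.3, limma 3.58.1, edgeR 4.0.16 and DESeq2 1.42.0. Other pseudocounts, scalings, filters, size rules and a correction for GC content and transcript length were tried.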

Additional observations from a re-analysis of the deposited data

Results flagged for a closer look

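For 9 members the counting interval lay below 1 in UMUC3 and above 1 in SW780, so the shSCD1 library was lower in one line and higher in the other. The difference of their log2 ratios, UMUC3 minus SW780, was −0.70 for CRELD2, −0.52 for XBP1, −0.38 for PDIA6, −0.36 (−0.365) for P4HB, −0.36 (−0.359) for SEC61A1, −0.35 for PDIA3, −0.33 for CALR, −0.28 for DERL1 and −0.14 for HSP90B1. With 1 library per line and condition the difference between the lines was not tested. The share of all 11152 genes kept in both tables with this pattern was 9.58%, a share not matched to the members for read number. Of these 9, 4 are disulfide isomerases or lectins, a group with 6 of the 35 members. An exact ERSE in the promoter window is held by 5 (CALR, CRELD2, HSP90B1, PDIA6 and XBP1), where 7 of 32 members hold one. PDIA3 and DERL1 had no promoter to search. A link between these traits and the pattern was not tested. The converse, higher in UMUC3 and lower in SW780 by counting interval, was found for 0 members, where 10.6% of the 11152 genes had it.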

How the results depend on the processing

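Of the 35 members, 31 in UMUC3 and 31 in SW780 kept the sign of their ratio in all 8 settings (pseudocounts, scalings, the authors' log2 fold change and a GC and length correction). Those that did not were EDEM1, HYOU1, SEC24D and SYVN1 in UMUC3 and DNAJB11, DNAJC3, EIF2AK3 and SYVN1 in SW780, all close to 0. The members' median ranged from −0.24 (the authors' deposited log2 fold change, −0.239) to −0.13 in UMUC3, and from 0.03 to 0.07 in SW780. That of the chaperones in UMUC3 ranged from −0.57 to −0.45. In UMUC3, values from the authors' log2 fold change include its median shift of −0.082 against the plain log2 CPM ratio. CRELD2 passed 1.5-fold in UMUC3 with a pseudocount of 0.1 CPM, after centring on the median, and in the authors' log2 fold change, which made 4 members lower. With a 2-fold rule and a pseudocount of 1 CPM 0 members were lower in UMUC3, but SDF2L1 passed it with a pseudocount of 0.1 CPM (−1.03), and SDF2L1 (−1.12) and DNAJB9 (−1.05) in the authors' log2 fold change. By GFOLD value 26 were lower and 4 higher in UMUC3 and 6 and 13 in SW780, and by counting interval 24 and 6, and 6 and 14.

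The count of all genes past 1.5-fold in UMUC3, 965 lower and 1426 higher, became 1571 and 1596 by the authors' log2 fold change, 477 and 576 with a pseudocount of 5 CPM, and 664 and 924 among genes of at least 5 CPM. In SW780 476 and 651 became 246 and 305 with a pseudocount of 5 CPM.

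The fit over both lines called 1 gene. It called 0 with edgeR, with a pseudocount of 0.1 CPM, with TMM scaling and with no filter, and 27 with DESeq2, with 0 members in each. Here the cell line is the block that pairs the libraries, and with no replicate block 0 genes were called. The labels give no replicate numbers, so no other pairing was possible. Leaving out a library was not possible with 1 per group. The fewest reads behind any member's value were the 166 of SDF2L1 in UMUC3 shSCD1.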
